A study of Mus musculus with 5 samples.

Results

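The genes described are 10 receptors that carry costimulatory signals in T cells: Cd28 and Icos of the CD28 family; Cd27, Tnfrsf18 (GITR), Tnfrsf4 (OX40), Tnfrsf9 (4-1BB), Tnfrsf1b (TNFR2) and Tnfrsf14 (HVEM) of the tumour necrosis factor (TNF) receptor family; and the adhesion receptors Cd2 and Cd226 (DNAM-1). They were picked by name, through their Ensembl mouse gene IDs, from the 55364 genes of each count table, and all 10 were found. The libraries came from RNA of invariant natural killer T (iNKT) cells, T cells with a semi-invariant receptor that recognise lipids on CD1d, sorted from mouse liver as cells positive for a CD1d tetramer loaded with PBS57 and for the T cell receptor beta chain. The 3 HCC libraries were from WT male C57BL/6 mice with hepatocellular carcinoma (HCC). These mice had received 1 intraperitoneal dose of 25 mg/kg diethylnitrosamine (DEN), a liver carcinogen, at 15 days of age. The 2 healthy libraries were from WT mice given PBS at 15 days of age. Mice were killed at 38 to 42 weeks. The comparison asks how these cells differ between livers with and without tumours.

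As background, a T cell that meets antigen through its receptor needs further signals to expand, survive and make cytokines, and costimulatory receptors deliver them. CD28 and ICOS bind B7 family ligands and signal through phosphoinositide 3-kinase and other kinases, whereas the TNF receptor members bind trimeric TNF family ligands and recruit TRAF adaptors that activate NF-kB. iNKT cells are in a pre-activated state and several of these receptors are known to tune their cytokine output after lipid recognition.

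The libraries are 3' mRNA libraries, which read transcript ends, so counts are taken not to depend on transcript length. How fully the annotated ends of each gene capture its reads was not tested, and the counting annotation was not given. Levels of different genes therefore compare only roughly, and a low count may understate a gene. Levels are CPM, counts scaled to a common total by each table's own sum, and are set side by side without division by gene length. Totals were 1718452 to 1883979 counts in HCC libraries and 2224356 and 1821863 in healthy 1 and healthy 2. A count of 0 allows up to 3 counts, or 1.59 to 1.75 CPM in HCC and 1.35 to 1.65 CPM in healthy libraries. Reads carry no molecular identifiers, so these limits and the intervals on single counts cover counting error only. Healthy 1 stood apart: across genes its log-scale levels correlated with those of the other libraries at r = 0.766 to 0.818, against 0.853 to 0.905 among the others (genes are not independent replicates). The table names of HCC 2 and HCC 3 share a number, so they may come from 1 mouse, although the labels count 3 mice. The p-values measure only the spread between these libraries.

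The sort label was checked against markers. All 12 T cell and iNKT markers had counts in every library but HCC 3, which lacked Zbtb16, and they summed to 5700.5 to 6698 CPM in HCC and 5063 and 6062 CPM in healthy libraries. Cd3e was at 183, 178 and 283 CPM in HCC 1, 2 and 3 and at 187 and 246 CPM in healthy 1 and 2, whereas Zbtb16 (PLZF), the defining iNKT factor, was at 0 to 1.16 CPM in HCC and 1.35 and 1.65 CPM in healthy libraries. Its level was near or under the limit of detection everywhere. Klrb1c (NK1.1), of the same list, was at 465, 20.9 and 333 CPM in HCC 1, 2 and 3 and at 382 and 5.49 CPM in healthy 1 and 2, so HCC 2 and healthy 2 stood far below the other libraries. Foxp3, which defines regulatory T cells that are also rich in several of these receptors, and Ncr1, which defines NK cells, were at 0 in all 5 libraries. Other genes of these lists were present: the 10 markers of regulatory and conventional T cells summed to 94.1, 118 and 107 CPM in HCC libraries and 90.8 and 92.2 CPM in healthy libraries, and Klrc2, of the NK and ILC1 list, was at 352, 97.8 and 139 CPM in HCC libraries and 227 and 64.8 CPM in healthy libraries. Erythroid markers (7 of 8 found) summed to 7391.5 to 17083 CPM in HCC and 2975 and 2787 CPM in healthy libraries, and 12 hepatocyte markers to 63.7 to 665 CPM in HCC and 48.6 and 58.7 CPM in healthy libraries. For both lists the lowest HCC library exceeded the higher healthy library, and their part in the levels of the receptors was not tested.

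No receptor passed the test of HCC against healthy libraries. Of the 10, 8 had enough counts for the test, and 0 of these 8 passed at an adjusted p under 0.05 in edgeR's quasi-likelihood test with Benjamini-Hochberg adjustment over 8468 genes, each with an adjusted p of 0.9998. Over all genes 0% were called higher and 0% lower, and at an unadjusted p under 0.05 the shares were 0 of the 8 receptors and 3.63% of all genes (307). DESeq2 called 0.12% of its genes and limma-voom 0%, and neither called a receptor. The HCC and healthy libraries overlapped for all 8 tested receptors, whereas 18.3% of all genes did not overlap. The 95% intervals of the log2 fold changes were wide, and even the narrowest, of Tnfrsf18, ran from 0.534-fold to 1.54-fold (log2 -0.91 to 0.62). In sorted bulk RNA, fewer cells with a transcript and less of it per cell cannot be told apart.

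**Figure D1:**
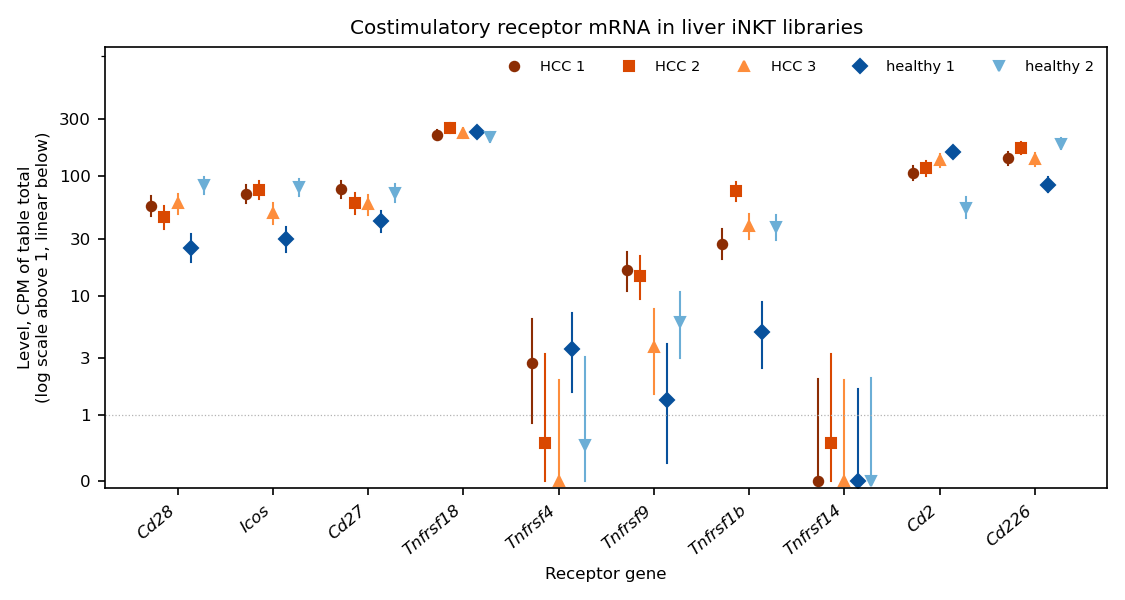
Levels of the 10 receptor genes in CPM of each table's total (log scale above 1 CPM, linear below) in 3 HCC and 2 healthy libraries; points are libraries and bars are exact 95% Poisson intervals of the count. Tnfrsf18 lies at 212 to 251 CPM in all 5 libraries, Tnfrsf4 and Tnfrsf14 lie near 0, and healthy 1 is the lowest library for 6 of the 8 tested receptors.

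Averaged over the 5 libraries, Tnfrsf18 was the most abundant receptor at 229 CPM, followed by Cd226 (144 CPM), Cd2 (114 CPM), Cd27 (61.9 CPM), Icos (61.2 CPM), Cd28 (53.9 CPM), Tnfrsf1b (36.4 CPM), Tnfrsf9 (8.40 CPM), Tnfrsf4 (1.49 CPM) and Tnfrsf14 (0.116 CPM). Between neighbours in this order, Tnfrsf18 was above Cd226, and Tnfrsf1b above Tnfrsf9, in 5 of 5 libraries. Cd27, Icos and Cd28 did not separate: Cd27 was above Icos, and Icos above Cd28, in only 3 of 5 libraries. Cd226 was above Cd2 in 4 of 5, with healthy 1 the exception. Tnfrsf18 ranked 552 to 615 among the genes with a count in HCC libraries and 557 and 624 in healthy libraries.

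Of the TNF receptor genes, Tnfrsf4 and Tnfrsf18 are close neighbours on the genome. In mm10 (GENCODE M21 annotation) 5 of the 10 receptor genes lie on chromosome 4 within 10815433 bases: Tnfrsf1b (145213463 to 145246870, minus strand), Tnfrsf9 (150914562 to 150946102, plus), Tnfrsf14 (154921933 to 154928563, minus), Tnfrsf4 (156013843 to 156016612, plus) and Tnfrsf18 (156026164 to 156028895, plus). Cd28 (60716800 to 60773359, plus) and Icos (60977927 to 61000320, plus) are on chromosome 1, Cd2 is on chromosome 3 (101275899 to 101287939, minus) and Cd27 on chromosome 6 (125232622 to 125237010, minus). Only 9551 bases separate Tnfrsf4 from Tnfrsf18, which share a strand yet had 15 and 2176 counts in all. Promoter bases of this pair are shown because the adjacent genes differed widely in level, and those of Tnfrsf1b and Tnfrsf9 because these had the largest fold changes. The stretch of Tnfrsf9 precedes a RefSeq start that lies inside the gene as GENCODE annotates it, whereas the other 3 end before the GENCODE start of their gene. The sequences are from RefSeq promoters (GRCm38.p6), 5′ to 3′ on the gene's strand, from chr4:156026072-156026163 (plus) for Tnfrsf18, chr4:156013445-156013694 (plus) for Tnfrsf4, chr4:145246871-145247120 (minus) for Tnfrsf1b and chr4:150919905-150920154 (plus) for Tnfrsf9, with motif matches in capitals.
Tnfrsf18: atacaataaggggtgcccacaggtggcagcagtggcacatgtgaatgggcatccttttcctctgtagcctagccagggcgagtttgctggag
Tnfrsf4: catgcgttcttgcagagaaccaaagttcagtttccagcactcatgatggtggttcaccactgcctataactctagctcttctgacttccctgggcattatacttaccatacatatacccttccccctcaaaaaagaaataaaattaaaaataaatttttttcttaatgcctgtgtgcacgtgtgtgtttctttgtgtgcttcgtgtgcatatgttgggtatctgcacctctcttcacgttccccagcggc
Tnfrsf1b: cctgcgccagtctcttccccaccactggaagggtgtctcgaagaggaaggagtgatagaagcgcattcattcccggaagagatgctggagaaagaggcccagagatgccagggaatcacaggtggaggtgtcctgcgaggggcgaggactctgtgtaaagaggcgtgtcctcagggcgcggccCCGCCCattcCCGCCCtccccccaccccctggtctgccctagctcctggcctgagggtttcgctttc
Tnfrsf9: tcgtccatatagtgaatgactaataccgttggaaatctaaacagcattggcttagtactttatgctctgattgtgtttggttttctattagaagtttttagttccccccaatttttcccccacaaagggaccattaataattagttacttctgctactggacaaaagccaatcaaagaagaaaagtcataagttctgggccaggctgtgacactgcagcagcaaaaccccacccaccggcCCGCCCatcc

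The motifs searched on both strands were the TATA box (TATAAA), the GC box (GGGCGG), AP-1 (TGANTCA), RUNX (TGTGGT), NF-kB and the CRE half-site (TGACG). The capitals mark GC boxes read on the opposite strand, 2 for Tnfrsf1b and 1 for Tnfrsf9, and 32.7% of 32851 promoters hold one in a window of 250 bases. No other motif was found in the 4 printed stretches. That of Tnfrsf18 is only 92 bases long, as it was cut at the first base that GENCODE places in an exon of the gene. Its full window of 250 bases held none of the motifs either. The shares of all promoters, in windows of 250 bases, were 12.4% for the TATA box, 6.75% for AP-1, 14.0% for RUNX, 1.41% for NF-kB and 17.8% for the CRE half-site. A further RefSeq start of Tnfrsf9, chr4:150927749-150927917 before the exon, had 1 AP-1 and 1 NF-kB match in its window of 250 bases, outside that stretch, which is not printed. Entries in the promoter table were matched for 6 receptors, these 4, Cd27 and Tnfrsf14, and Cd226 was not looked up.

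The CD28 family receptors lay within the healthy range. Cd28, the receptor for CD80 and CD86, was at 56.6, 45.4 and 58.9 CPM in HCC 1, 2 and 3 and at 25.2 and 83.4 CPM in healthy 1 and 2. Every HCC library fell between the 2 healthy libraries, which differed from each other 3.31-fold, against 1.30-fold between the highest and lowest HCC library. The means were 53.6 ± 7.23 CPM in HCC (SD, n = 3) and 54.3 ± 41.2 CPM in healthy libraries (SD, n = 2), a log2 fold change of -0.11 (SE 0.49, 95% interval -1.21 to 0.99), which was 0.81 without healthy 2 and -0.66 without healthy 1. Icos, an inducible receptor that sustains helper cytokines, was at 71.3, 76.2 and 48.8 CPM in HCC libraries and at 29.7 and 80.1 CPM in healthy libraries. Again all HCC libraries lay between the healthy ones. Its log2 fold change was 0.13 (SE 0.45, interval -0.89 to 1.15) and -0.33 without healthy 1, 0.84 without healthy 2. Within a library, Cd28 had 0.794, 0.595 and 1.21 counts per Icos count in HCC libraries and 0.848 and 1.04 in healthy libraries, with overlapping groups, while healthy 2 exceeded healthy 1 by 3.31-fold for Cd28 and 2.70-fold for Icos.

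Among the TNF receptor genes, Tnfrsf18 varied least. GITR, a receptor that is high on regulatory and activated T cells, was at 219, 251 and 229 CPM in HCC libraries and at 235 and 212 CPM in healthy libraries. In CPM of table totals the groups overlapped, and the HCC libraries differed 1.15-fold and the healthy libraries 1.11-fold among themselves, including healthy 1. The TMM factor was 0.83 for healthy 1 against 0.9996 to 1.12 for the others. After TMM scaling healthy 1, with 523 counts, is thus the highest library. The means were 233 ± 16.5 CPM in HCC (SD, n = 3) and 224 ± 16.1 CPM in healthy libraries (SD, n = 2). The log2 fold change was -0.14 after TMM scaling (SE 0.34) and 0.06 by library totals, a scaling that moves the median of all genes by 0.164 on the log2 scale against 0.005 for TMM, so no direction is given. An annotated antisense gene, Gm16008, overlaps its exons. It had 3 counts in HCC 1 and 0 in the other libraries, and the strand setting of the counting was not given in the sources used here.

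Cd27, which binds CD70 and supports survival, was at 77.8, 59.4 and 57.9 CPM in HCC libraries and at 41.8 and 72.5 CPM in healthy libraries. HCC 1 was the highest and healthy 1 the lowest library. The log2 fold change was 0.04 (SE 0.40, interval -0.86 to 0.94) and -0.18 without healthy 1. Cd27 had 1.38, 1.31 and 0.982 counts per Cd28 count in HCC libraries and 1.66 and 0.868 in healthy libraries, with overlapping groups. Its exons overlap those of the microRNA gene Mir8113 on the same strand.

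Tnfrsf9 and Tnfrsf1b had the largest fold changes of the 8 tested receptors, and neither passed. Tnfrsf9, which encodes the activation-induced receptor 4-1BB, was at 16.3, 14.5 and 3.72 CPM in HCC libraries (30, 25 and 7 counts) and at 1.35 and 6.04 CPM in healthy libraries (3 and 11 counts). HCC 1 and HCC 2 were above both healthy libraries, and HCC 3 was between them. The means were 11.5 ± 6.83 CPM in HCC (SD, n = 3) and 3.69 ± 3.32 CPM in healthy libraries (SD, n = 2), with a log2 fold change of 1.52 (SE 1.03, interval -0.78 to 3.82, adjusted p = 0.9998 in edgeR) that was 0.88 without healthy 1 and 2.74 without healthy 2. Tnfrsf1b, the TNF receptor that lacks a death domain, was at 27.2, 74.5 and 38.2 CPM in HCC libraries and at 4.95 and 37.3 CPM in healthy libraries. Healthy 1, with 11 counts, was the low library, while healthy 2 was within the range of the HCC libraries. The log2 fold change was 1.05 (SE 0.73, interval -0.57 to 2.68), 0.27 without healthy 1 and 2.91 without healthy 2 (adjusted p = 0.0624 in edgeR). Macrophages also express Tnfrsf1b: their 11 markers summed to 28.3, 33.8 and 11.1 CPM in HCC libraries and 43.2 and 8.78 CPM in healthy libraries, with Timd4 and Vsig4 at 0 in all 5. Single markers, named after their values were seen, differed in order. Lyz2 was highest in HCC 2 (33.8 CPM) and at 0 in healthy 1, the libraries with the highest and lowest Tnfrsf1b, whereas C1qa (13.0 CPM), Marco (21.6 CPM) and Cd5l (4.95 CPM) were highest in healthy 1 and, like every other marker of the list but Lyz2, at 0 in HCC 2. The part of these cells in the level of Tnfrsf1b was not tested.

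Tnfrsf4 and Tnfrsf14 had too few counts for the test. Tnfrsf4, the receptor OX40 of activated T cells, had 5, 1 and 0 counts in HCC libraries and 8 and 1 counts in healthy libraries. In HCC 1 and healthy 1 it thus exceeded the 3 counts that a count of 0 allows. Tnfrsf14, which encodes HVEM and also engages inhibitory partners, had 1 count in HCC 2 and 0 in the other libraries. Of the 31-base words at the transcript ends of Tnfrsf14, 11% occur in other genes, against 0 to 0.7% for the other receptors.

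Cd2 and Cd226 were abundant, and the 2 healthy libraries differed for them in opposite directions. Cd2, an adhesion receptor that binds CD48 in the mouse, was at 106, 116 and 135 CPM in HCC libraries and at 160.05 and 54.3 CPM in healthy libraries. By table totals it was the 1 tested receptor for which healthy 1 was the highest library, 2.95-fold above healthy 2, and the HCC libraries lay between them. The log2 fold change was -0.11 (SE 0.51, interval -1.26 to 1.04) after TMM scaling and 0.15 by library totals. It was 1.11 without healthy 1 (unadjusted p = 0.0208, adjusted p = 0.9989 in edgeR) and -0.71 without healthy 2. Cd226, which binds CD155 and CD112 on stressed and transformed cells, was at 141, 172 and 137 CPM in HCC libraries and at 84.5 and 186 CPM in healthy libraries. Here healthy 1 was the lowest library. The gene lies on chromosome 18 (89176967 to 89272229, plus strand, mm10). The means were 150.03 ± 18.8 CPM in HCC (SD, n = 3) and 135 ± 71.8 CPM in healthy libraries (SD, n = 2), a log2 fold change of 0.01 (SE 0.38, interval -0.83 to 0.86), and -0.34 without healthy 1. Among 8 NK and ILC1 markers, cells that carry both receptors, Ncr1 and Klra4 were at 0 in all 5 libraries, and the list summed to 500, 120 and 188 CPM in HCC libraries and to 316 and 93.9 CPM in healthy libraries. The part of this list in the levels of Cd2 and Cd226 was not tested.

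The position of the HCC libraries between the 2 healthy ones recurred. In CPM of table totals it held for 4 of the 8 tested receptors (Cd28, Icos, Cd2 and Cd226), against 17% of all genes tested. By the same totals healthy 1 was the lowest of the 5 libraries for 6 of the 8, against 41.9% of all genes. It was the highest for 1 of the 8, against 18.8%. These placements were not counted after TMM scaling. The sum over the 10 receptors was 718, 811 and 709 CPM in HCC libraries and 586 and 733 CPM in healthy libraries, or 746 ± 56.1 CPM in HCC (SD, n = 3) and 660 ± 104 CPM in healthy libraries (SD, n = 2). After TMM scaling the sums were 699, 731 and 717 CPM in HCC libraries and 714 and 715 CPM in healthy libraries. The difference in sums was thus 86.5 CPM by table totals and 1.33 CPM after TMM scaling. Tnfrsf18 made up 30.5, 31.01 and 32.3% of the summed counts in HCC libraries and 40.1 and 29.0% in healthy libraries, and the share was highest in healthy 1. Per 100 counts of T cell receptor and CD3 chains, the receptors together had 17.7, 22.4 and 15.95 counts in HCC libraries and 18.5 and 17.0 in healthy libraries, with overlapping groups.

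**Figure D2:**
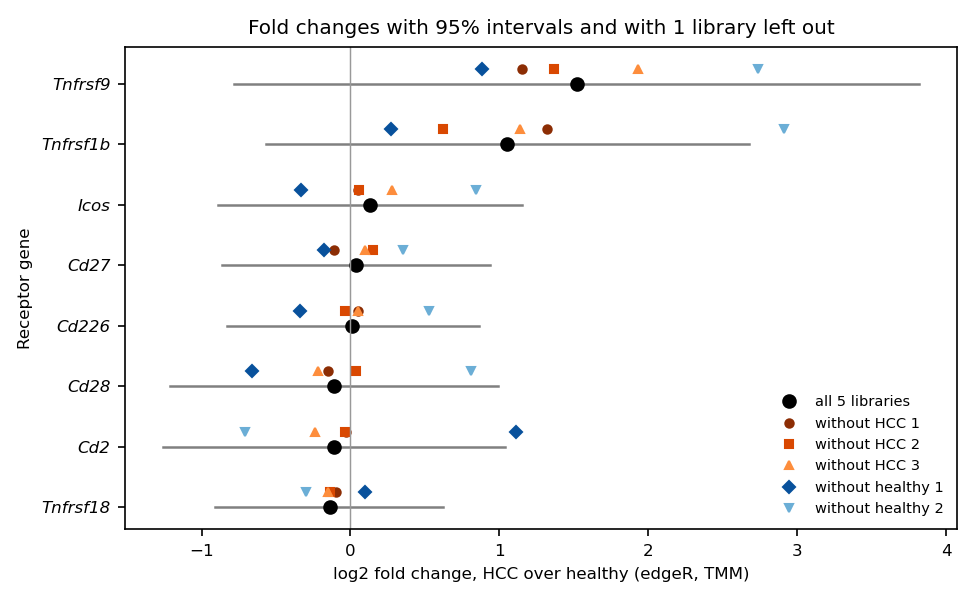
Log2 fold changes (HCC over healthy, edgeR after TMM scaling) of the 8 tested receptors with 95% intervals (black points, grey lines) and after leaving out each library (coloured points). Every interval crosses 0, and the coloured points of Cd28, Icos, Cd27, Cd226, Cd2 and Tnfrsf18 lie on both sides of 0, while those of Tnfrsf9 and Tnfrsf1b span 0.88 to 2.74 and 0.27 to 2.91.

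The ligands of these receptors were sparse in the sorted cells. Of 13 ligand genes, 4 had enough counts for the test, 4 (Cd80, Cd70, Tnfsf18 and Nectin2) were at 0 in all 5 libraries, and 0 were called, with a median log2 fold change of 0.37 over the 4 tested against 0.00 over all genes. Tnfsf14 (LIGHT), a ligand of HVEM, was at 78.4, 44.8 and 71.1 CPM in HCC libraries and at 29.7 and 65.9 CPM in healthy libraries (log2 fold change 0.32, SE 0.47). The ligand was thus present in every library and its receptor Tnfrsf14 near 0. Cd48 was at 54.4, 85.5 and 40.9 CPM in HCC libraries and at 15.7 and 68.6 CPM in healthy libraries (0.41, SE 0.57), and Icosl, the ICOS ligand, at 8.80 ± 0.709 CPM in HCC (SD, n = 3) and 10.5 ± 5.52 CPM in healthy libraries (SD, n = 2). Pvr, which encodes the DNAM-1 ligand CD155, was singled out after its values were seen: it was at 11.4, 8.15 and 17.5 CPM in HCC libraries and at 0 and 5.49 CPM in healthy libraries, with every HCC library above the healthy ones but not called (log2 fold change 2.14, SE 1.25, adjusted p = 0.9998 in edgeR). Of all genes tested, 12.8% had all 3 HCC libraries above both healthy libraries.

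Inhibitory receptors, several of which share ligands with the costimulatory ones, were unevenly represented. Of 10, 4 had enough counts for the test, 2 had higher and 2 lower fitted levels in HCC libraries, 0 were called, and the median log2 fold change was -0.14. Among the genes with too few counts, named after their values were seen, Ctla4, the inhibitory counterpart of Cd28, had 4 counts in HCC 1, 0 in HCC 2 and HCC 3, and 0 and 1 in healthy 1 and 2. Lag3 and Havcr2 were at 0 in all 5 libraries, and Pdcd1 (PD-1) was at 13.1, 0 and 5.31 CPM in HCC libraries and at 3.60 and 0 CPM in healthy libraries. Cd160, an inhibitory partner of HVEM, was at 59.9, 86.1 and 81.2 CPM in HCC libraries and at 116 and 101 CPM in healthy libraries, lower in each HCC library but not called (log2 fold change -0.72, SE 0.38), and 5.46% of all genes had this placement. Cd96, which competes with DNAM-1 for CD155, was at 46.8, 69.8 and 73.2 CPM in HCC libraries and at 39.6 and 22.0 CPM in healthy libraries, higher in each HCC library but not called (0.81, SE 0.49). That higher placement held for 12.8% of all genes. Cd5, a brake on T cell receptor signalling, was at 47.0 ± 25.1 CPM in HCC (SD, n = 3) and 32.4 ± 25.5 CPM in healthy libraries (SD, n = 2).

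**Figure D3:**
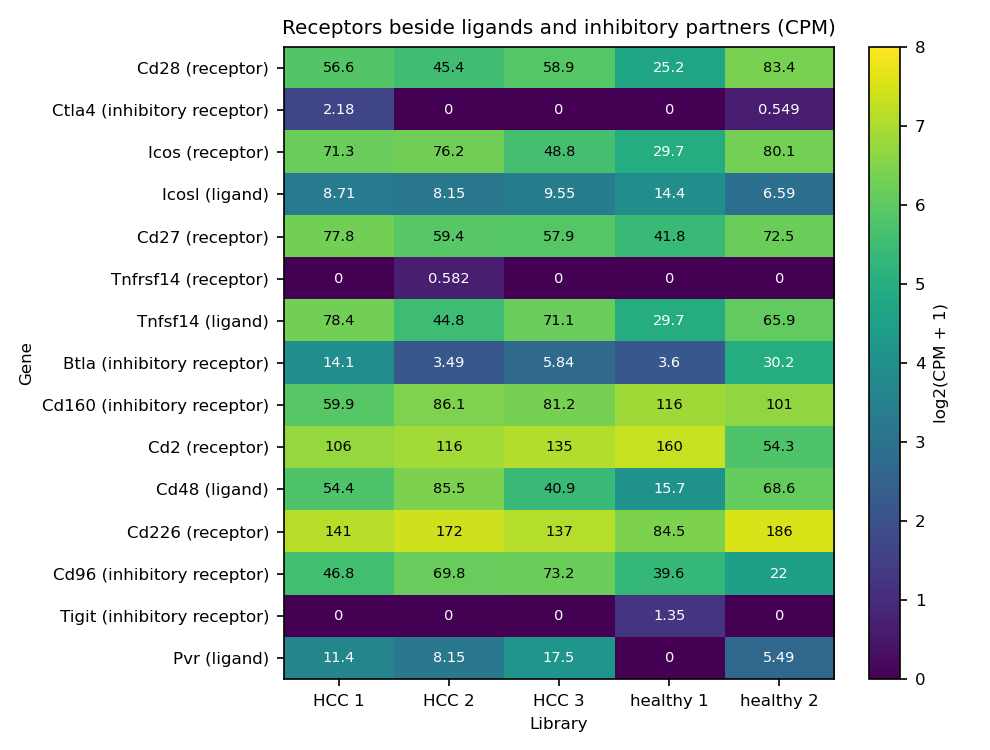
Levels in CPM of table total (numbers) and log2(CPM + 1) (colour) of costimulatory receptors beside ligands and inhibitory receptors of the same axes in the 3 HCC and 2 healthy libraries. Tnfsf14 is at 29.7 to 78.4 CPM where Tnfrsf14 is at 0 to 0.582 CPM, and Ctla4 is at 0 to 2.18 CPM where Cd28 is at 25.2 to 83.4 CPM.

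Count ratios within a library, which no scaling changes, were formed for gene pairs chosen after the values were seen. Cd226 had 3.01, 2.46 and 1.88 counts per Cd96 count in HCC libraries, and 2.14 in healthy 1 and 8.47 in healthy 2 (exact 95% interval 6.10 to 12.1). The high value of healthy 2 had no match in the other 4 libraries, and the groups overlapped through healthy 1. Cd226 had 1.33, 1.48 and 1.02 counts per Cd2 count in HCC libraries, against 0.528 in healthy 1 and 3.42 in healthy 2. Cd2 had 1.95, 1.36 and 3.31 counts per Cd48 count in HCC libraries, against 10.2 in healthy 1 and 0.792 in healthy 2. For both ratios with Cd2 the healthy libraries lay on either side of all HCC libraries. Tnfrsf1b had 1.61, 2.33 and 1.06 counts per count of Tnfrsf1a, the death-domain TNF receptor, in HCC libraries and 0.688 and 1.17 in healthy libraries. The groups overlapped, and the ratio of healthy 1 rested on 11 and 16 counts (exact 95% interval 0.288 to 1.58).

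**Figure D4:**
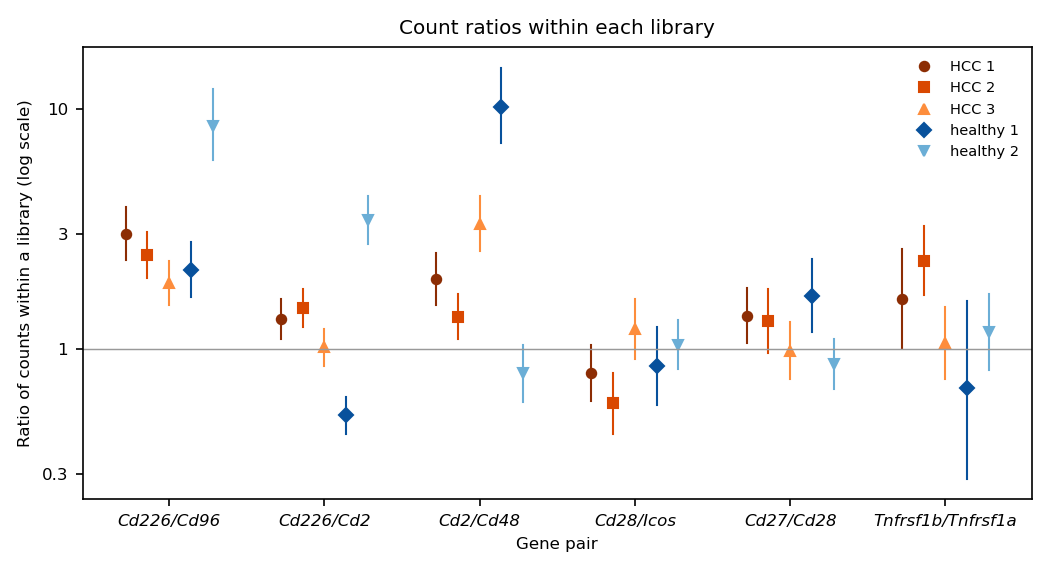
Ratios of counts between 2 genes of the same library (log axis) for 6 gene pairs, with exact 95% intervals, in 3 HCC and 2 healthy libraries. The Cd226/Cd2 and Cd2/Cd48 ratios of the 2 healthy libraries lie on either side of the 3 HCC libraries, and the Cd226/Cd96 ratio of healthy 2 is 8.47 against 1.88 to 3.01 in HCC libraries.

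Other TNF receptor genes gave 6 tested of 14, 3 fitted higher and 3 lower in HCC libraries and 0 called, with a median log2 fold change of -0.09. Tnfrsf1a was at 28.3 ± 10.1 CPM in HCC (SD, n = 3) and 19.5 ± 17.4 CPM in healthy libraries (SD, n = 2), Tnfrsf25 (DR3) at 16.3 ± 13.3 CPM in HCC and 13.1 ± 10.2 CPM in healthy libraries, and Tnfrsf26 at 13.4 ± 6.29 CPM in HCC and 15.7 ± 1.28 CPM in healthy libraries. Of 18 genes listed for CD28 and CD2 signalling, 15 were tested, with 12 fitted higher and 3 lower in HCC libraries. The median was 0.39 and 0 were called. The list is mixed: it also holds the surface integrin chains Itgal and Itgb2 (0.53 and 0.72) and Pdk1, a pyruvate dehydrogenase kinase (0.60). Fitted levels over all 8468 genes were higher for 4258 and lower for 4210. Pik3cd, the leukocyte catalytic subunit of phosphoinositide 3-kinase, was at 298 ± 50.5 CPM in HCC and 236 ± 83.2 CPM in healthy libraries (0.10, SE 0.40). Lck, the kinase that starts receptor signalling, was at 465 ± 73.8 CPM in HCC and 471 ± 21.9 CPM in healthy libraries (-0.20, SE 0.35). Itgal, the alpha chain of the integrin LFA-1, was at 341, 486 and 478 CPM in HCC libraries and at 206 and 337 CPM in healthy libraries (0.53, SE 0.36), and it was 1 of 4 genes among the 15 tested with all HCC libraries above both healthy ones, against 12.8% of all genes.

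Of 22 TRAF and NF-kB genes, which carry TNF receptor signals, 19 were tested, 14 fitted higher and 5 lower in HCC libraries, 0 were called, and the median log2 fold change was 0.27. Nfkbia, the NF-kB inhibitor that NF-kB itself induces, was at 209, 159 and 128 CPM in HCC libraries and at 84.5 and 159.7 CPM in healthy libraries (0.30, SE 0.39). Rela was at 38.2 ± 10.2 CPM in HCC and 29.7 ± 11.5 CPM in healthy libraries (SD, n = 3 and 2), and Tnfaip8 at 57.9 ± 33.9 CPM in HCC and 35.6 ± 14.8 CPM in healthy libraries. Nfkb1, singled out after its values were seen as the 1 gene of these lists with an unadjusted p under 0.05, was at 17.96, 43.1 and 13.3 CPM in HCC libraries and at 3.60 and 6.59 CPM in healthy libraries (log2 fold change 2.09, SE 0.73, adjusted p = 0.9998 in edgeR). Of 15 genes known to be induced by costimulation or to mark its outcome, 14 were tested, 8 fitted higher and 6 lower in HCC libraries, and 0 were called, with a median of 0.07. Ccnd2, a cell cycle cyclin, was at 862 ± 40.5 CPM in HCC and 818 ± 56.0 CPM in healthy libraries, Tbx21 (T-bet), which drives interferon gamma, at 317 ± 71.1 CPM in HCC and 353 ± 23.7 CPM in healthy libraries, and the survival gene Bcl2a1d at 125 ± 28.4 CPM in HCC and 113 ± 77.8 CPM in healthy libraries (SD, n = 3 and 2). Bcl2l1, which encodes the survival protein BCL-XL induced by CD28, was singled out after its values were seen: it was at 33.2, 27.9 and 34.0 CPM in HCC libraries and at 52.6 and 46.7 CPM in healthy libraries, lower in each HCC library but not called (-0.84, SE 0.43). This placement held for 1 of the 14 genes, against 5.46% of all genes. In the opposite direction, 3 of the 14 (Il4, Slc2a1 and Gata3) had all HCC libraries above both healthy ones, against 12.8% of all genes.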

How the data were processed

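RNA of sorted liver iNKT cells was made into 3' mRNA libraries with a QuantSeq kit for Ion Torrent, per the labels' protocols. The deposited values are raw counts per Ensembl gene ID, 1 table per library, without normalization. Per the submitters' processing notes, the tools include Bowtie2 and HISAT2, bcl2fastq, limma, edgeR, DESeq and DESeq2, with no roles or versions, and the build is mm10. Not given in the sources used here are the counter, its annotation and its strand handling.

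Symbols and positions came from GENCODE M21 by gene ID, for 55104 of 55364 IDs. CPM used each table's own total. Tests were run in R 4.3.3 with edgeR 4.0.16 (filterByExpr by group, TMM, quasi-likelihood F test, Benjamini-Hochberg over all 8468 genes tested, threshold 0.05), with DESeq2 1.42.0 and limma 3.58.1 (voom) as alternatives; the steps were tested on simulated data. The common biological coefficient of variation was 53.8%. Exact Poisson intervals and exact binomial intervals for count ratios were at 95%. Shared words are 31-base words within the last 300 bases of transcripts. A library's depth was 1718452 to 2224356 counts.

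The receptors, lists and tests were chosen with earlier results of these data known. All 10 receptors are named; of each other list, the 3 tested genes with the highest mean CPM and any called gene. Other genes, including ligands, inhibitory receptors and markers at or near 0 and the partner genes plotted, were chosen after their values were seen. Alternatives were DESeq2 size factors, library totals, no filter on low counts, 10 CPM in 2 libraries, DESeq2, voom, a replicate block, a sum of HCC 2 with HCC 3, leaving out each library and, for summed levels, TMM or protein-coding totals. Count ratios were added after seeing the data.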

Additional observations from a re-analysis of the deposited data

How the results depend on the processing

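In 13 alternative settings the 8 tested receptors gave 104 refitted log2 fold changes, of which 0 were called, the lowest adjusted p being 0.0624 (Tnfrsf1b without healthy 2, edgeR). The direction was kept in 90 and turned in 14, and the cause was not tested. By library totals Tnfrsf18 was at 0.06 and Cd2 at 0.15. By limma-voom Cd28 was at 0.03 and Cd2 at 0.17, and with the replicate block Cd2 was at 0.02. Without healthy 1 the log2 fold changes were -0.33 for Icos, -0.18 for Cd27, 0.10 for Tnfrsf18, 1.11 for Cd2 and -0.34 for Cd226, and without healthy 2 that of Cd28 was 0.81. Without HCC 1 Cd27 was at -0.11, and without HCC 2 Cd28 was at 0.04 and Cd226 at -0.04. Leaving out each library in turn gave ranges of -0.66 to 0.81 for Cd28, -0.33 to 0.84 for Icos, -0.18 to 0.35 for Cd27, 0.88 to 2.74 for Tnfrsf9, -0.30 to 0.10 for Tnfrsf18, 0.27 to 2.91 for Tnfrsf1b, -0.71 to 1.11 for Cd2 and -0.34 to 0.53 for Cd226.

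Over all genes, edgeR called 29 higher and 24 lower in HCC libraries with no filter on low counts, and 3 higher with the replicate block, while DESeq2 called 8 higher. Leaving out 1 library gave 0 to 102 genes higher and 0 to 94 lower, the highest counts without healthy 2, in a fit that takes the lone healthy 1 to vary like the HCC libraries. The difference in summed CPM, HCC minus healthy, was 1.33 after TMM scaling and 13.3 to 160 when 1 library was left out.

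Replicate numbers are shared between the groups by label alone. The deviations of same-numbered libraries from their group means correlated at -3.53e-05 and 0.125 in the 2 pairs. With only 2 healthy libraries their deviations mirror each other, so this check cannot decide whether the numbers mark pairs. The main test did not use them as pairs. Under the block Tnfrsf1b had a log2 fold change of 1.45 (unadjusted p = 0.0388, adjusted p = 0.9999 in edgeR). Tnfrsf4, Tnfrsf14 and most ligands had too few counts for the test, with most levels near or under what a count of 0 allows. The part of sequencing depth in this was not tested.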
